A study of Mus musculus with 8 samples.

Results

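Surface and adhesion molecules used to follow reprogramming were examined on Illumina bead arrays, which read RNA as the brightness (intensity) of each probe. The 10 genes were Thy1, Prnp, Cd24a, Cd44, Cd9, Icam1, Epcam, Cdh1, Cdh2 and Cldn3. All probes that the array annotation gives to these 10 genes were taken, each kept apart, which made 21 of 45281 probes and 10 of 19057 named genes. The genes were proposed with RNA values of these same arrays in view, from Nanog and from Nanog+Sin3a against the empty vectors. Their values are therefore given as a description, with standard errors and intervals but no p-values.

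The cells were pre-iPSCs, a stalled intermediate of reprogramming, obtained from female mouse neural stem cells on a 129/MF1 background. All carried an Oct4-GFP-IRES-puro reporter and grew in serum with LIF at 20 ng/mL. Every group had been stably transfected with a pair of PiggyBac vectors under a CAG promoter, together with the transposase, and selected with hygromycin, blasticidin or both. The groups were 2 empty vectors (EV), Nanog with an empty vector (Nanog), Sin3a with an empty vector (Sin3a), and Nanog with Sin3a (Nanog+Sin3a), each on 2 arrays at day 0. The series title asks whether the Sin3a co-repressor complex and the transcription factor Nanog cooperate. The labels give replicate numbers but do not say whether separate cultures or clones were used, so errors and p-values measure only the spread between these arrays, which may be technical.

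Reprogramming of fibroblasts passes through a change from mesenchymal to epithelial adhesion. Thy1, a GPI-anchored glycoprotein of fibroblasts and neurons, is lost early, and the epithelial molecules Cdh1 (E-cadherin), Epcam and Cldn3 (a tight junction claudin) are gained. Cd44, the hyaluronan receptor, and Icam1, a ligand of leukocyte integrins, are used together to sort intermediate stages. Cd24a (a GPI-anchored mucin-like protein), Cd9 (a tetraspanin) and Prnp (the GPI-anchored prion protein) are found on pluripotent cells as well as on neural cells. Cdh2 (N-cadherin) is the cadherin of neural and mesenchymal cells.

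RefSeq promoters (build GRCm38.p6) were found for 6 of the 10 genes, and not used here for Thy1, Cd24a, Cdh1 and Cdh2. The 250 bases before the start site are shown for Prnp and Cd9, since their RNA was higher on every array with Nanog than on every EV array, and for Epcam, since its probe lay below 0 on all arrays but the second Sin3a array. Capitals mark the GC box GGGCGG, the core bound by Sp-family factors, in Prnp and Cd9, and the E-box CAGGTG, the core bound by Snail and Zeb repressors, in Epcam. Each motif was searched on both strands, so it can also read CCGCCC or CACCTG.
Prnp (chr2:131909678-131909927, plus strand): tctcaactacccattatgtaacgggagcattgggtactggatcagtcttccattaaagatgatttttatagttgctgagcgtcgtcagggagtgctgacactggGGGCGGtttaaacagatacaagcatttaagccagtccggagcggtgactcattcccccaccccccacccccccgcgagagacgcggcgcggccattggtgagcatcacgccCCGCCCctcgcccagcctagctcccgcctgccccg
Cd9 (chr6:125494761-125495010, minus strand): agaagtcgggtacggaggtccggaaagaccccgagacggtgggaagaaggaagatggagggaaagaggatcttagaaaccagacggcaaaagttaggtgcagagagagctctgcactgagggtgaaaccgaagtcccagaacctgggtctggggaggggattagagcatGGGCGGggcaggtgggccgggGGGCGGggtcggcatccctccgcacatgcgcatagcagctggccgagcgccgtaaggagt
Epcam (chr17:87635729-87635978, plus strand): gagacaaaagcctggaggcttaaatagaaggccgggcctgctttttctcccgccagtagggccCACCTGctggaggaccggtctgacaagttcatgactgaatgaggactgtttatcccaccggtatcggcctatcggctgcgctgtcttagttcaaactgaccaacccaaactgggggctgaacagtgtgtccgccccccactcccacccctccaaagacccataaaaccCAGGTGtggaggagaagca
The Prnp and Cd9 windows held 2 GC boxes each, and 32.7% of all 32851 promoter windows of this length held at least 1. Icam1, Epcam and Cldn3 had 1 GC box each and Cd44 had 0, so 5 of the 6 windows held one. The Epcam window held 2 E-boxes of this form, and 17.2% of all windows held at least 1. Cd9 and Icam1 had 1 such E-box each, and Prnp, Cd44 and Cldn3 had 0. A match is a run of letters and not a measured binding site.

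A library did not resemble its partner: the second Sin3a array. Its correlation with the first Sin3a array was 0.784 across 19673 probes, against 0.982 to 0.993 within the other groups. A log2 gap of more than 1 separated the Sin3a arrays at 78.8% of the 7740 probes with a mean log2 from 5 up to 8, and the EV arrays at 0.271% of them. For the 2684 probes at 9 or above, the Sin3a share was 0.224%. Differences below therefore come from a limma fit to the 7 other arrays, with values under an intensity of 16 (log2 of 4, called the floor) raised to it, unless bright probes are named. Bright probes are the 2670 whose mean log2 value over all 8 arrays was above 9. In the 7-array fit the lone Sin3a array is assumed to vary like the others.

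**Figure D1:**
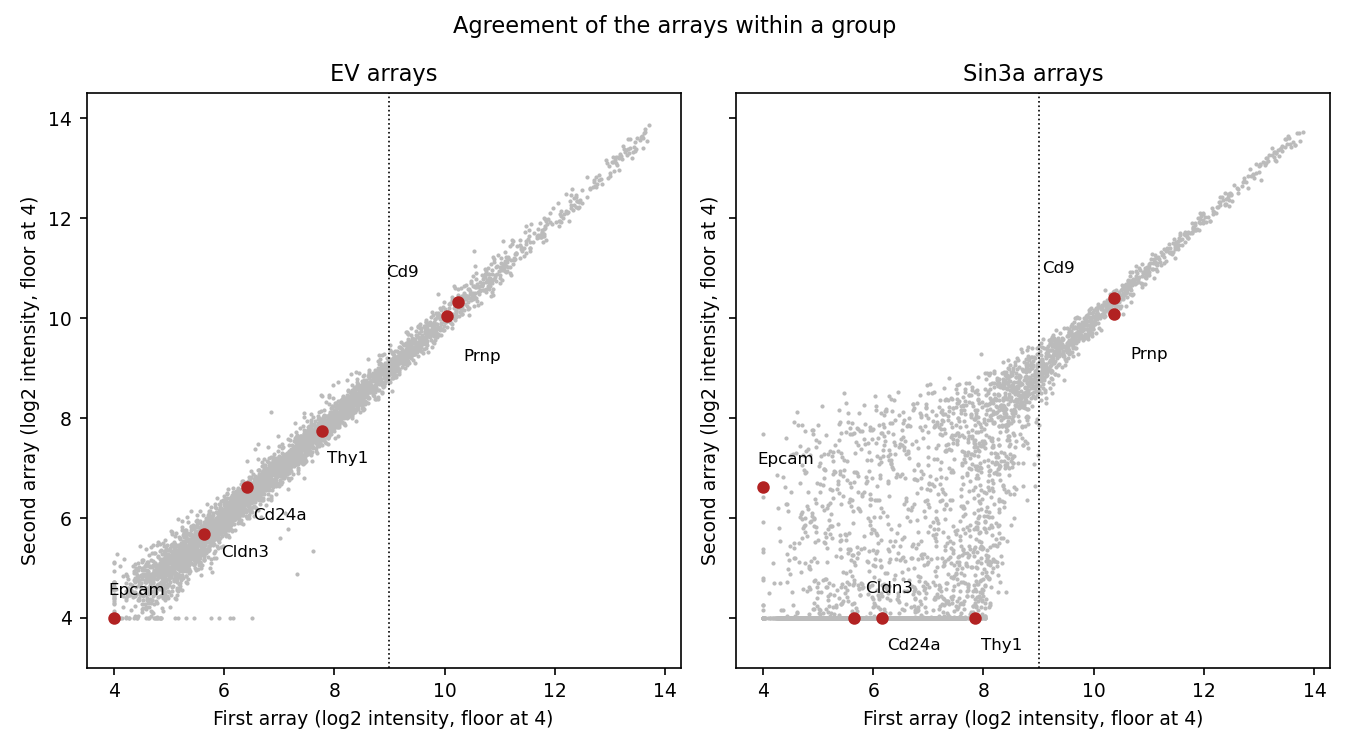
Second array against first array of the EV group (left) and of the Sin3a group (right), as log2 intensity with a floor at 4, for 4000 probes drawn at random from those with a 7-array mean above 4.5 (grey) and 6 member probes (red). The dotted line marks a log2 value of 9. The Sin3a arrays scatter widely below it, where Thy1, Cd24a and Cldn3 fall to the floor on the second array and Epcam rises to an intensity of 98.9, while Prnp and Cd9 lie above it.

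The RNA of the 2 transgenes was checked first. Readings of 1 of 2 Nanog probes were between -5.40 and -3.60 on the EV arrays, -12.2 and -7.30 on the Sin3a arrays, 365 and 486 with Nanog, and 285 and 290 with Nanog+Sin3a. The other Nanog probe showed no such rise, with 14.4 and 13.8 on the EV arrays, 21.0 and 13.0 with Nanog, 10.2 and -4.80 with Sin3a, and 5.60 and 13.6 with Nanog+Sin3a. The Sin3a probe read 262 and 329 with EV, 344 and 473 with Nanog, 1142 and 1182 with Sin3a, and 1483 and 1485 with Nanog+Sin3a. Of 12 pluripotent cell markers with a probe, Pou5f1 (Oct4), Klf4, Sall4 and Dppa5a were above the floor on all 7 arrays. Esrrb and Utf1 were not above it on any of them, and 6 were on some. The brighter Pou5f1 probe ran from 904 to 1167. Of 9 neural stem cell markers with a probe, Nes and Egfr were above the floor on all 7 arrays and 5 on none, namely Pax6, Olig2, Fabp7, Slc1a3 and Gfap.

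Of the 21 member probes, 15 from 9 genes were above the floor on at least 2 of the 7 arrays and were fitted with the other probes, 18558 in all. The 6 left out were the Epcam probe, 1 of 2 probes each of Thy1, Cdh1 and Cdh2, and 2 of 9 probes of Cd44. With Nanog against EV, 2 member probes (Prnp and Thy1) were called higher and 0 lower at an adjusted p of 0.05, where 2.04% of all tested probes were called, 1.08% higher and 0.959% lower. With Nanog+Sin3a against EV, 3 were called higher (Prnp, Thy1 and Cd9) and 1 lower (Cd24a), where 5.87% of all tested probes were called, 2.80% higher and 3.08% lower. With Nanog+Sin3a against Nanog 0 of 15 were called by limma, where 0.0162% of all were and 1937 probes had an unadjusted p under 0.05, and the 95% intervals of Thy1 and Prnp left out 0. In the interaction 0 of 15 were called and 0% of all, with 954 probes at an unadjusted p under 0.05. Among the bright probes of all 8 arrays, 3 of 4 member probes were called with Nanog against EV (9.89% of all), 2 with Nanog+Sin3a against EV (17.3%), 0 with Nanog+Sin3a against Nanog (0.262%) and 0 in the interaction (0.0375%). Nothing is read from these counts, since the genes were proposed from these contrasts. The arrays of the 2 groups did not overlap for 7 of 15 member probes with Nanog against EV, where 48.7% of all tested probes did not. This held for 9 of 15 with Nanog+Sin3a against EV (53.4% of all) and for 4 of 15 with Nanog+Sin3a against Nanog (33.5% of all), and for 3 of the 4 bright probes with Sin3a against EV (41.2% of all bright probes). For the 15 probes the non-overlap shares were near the background.

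**Figure D2:**
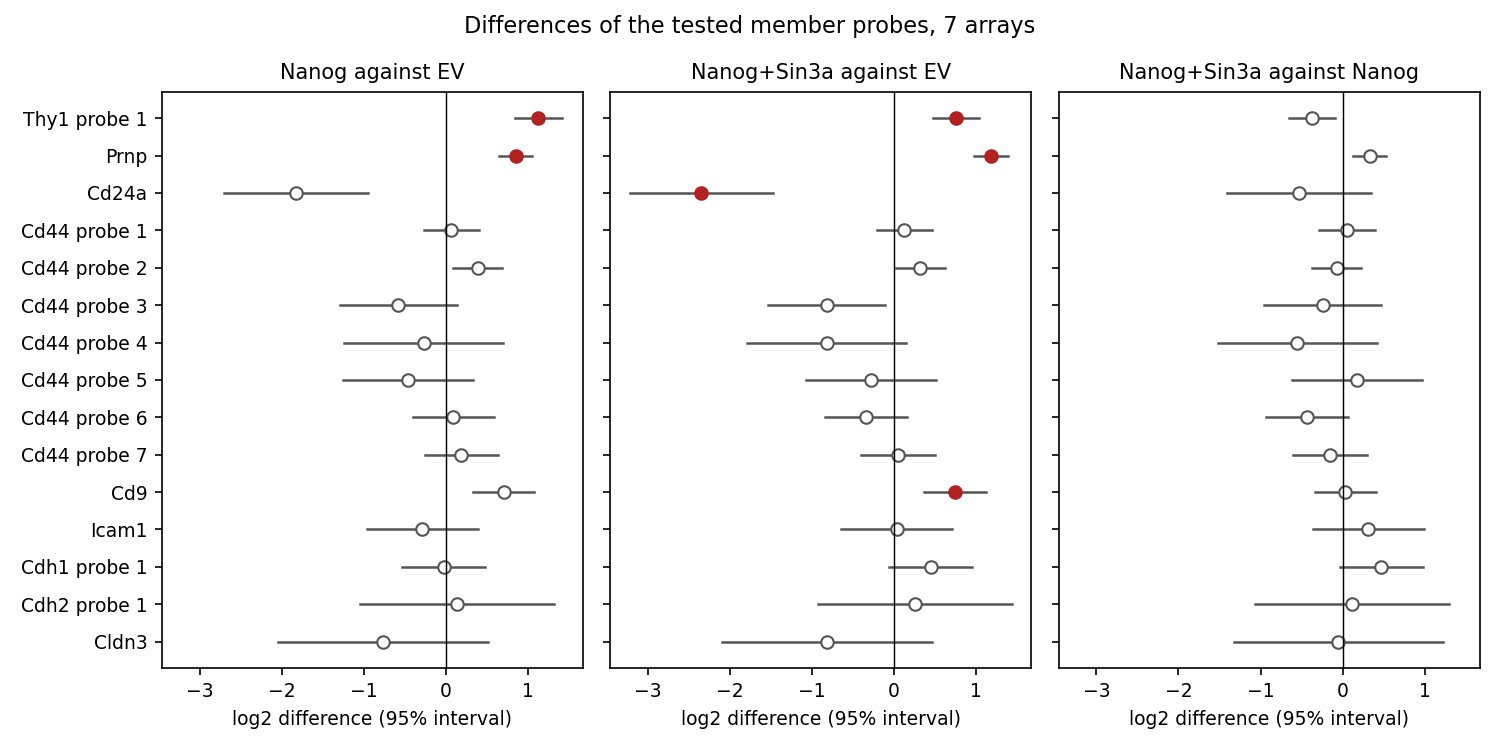
Log2 differences of the 15 tested member probes from the 7-array fit with their 95% intervals, for Nanog against EV, Nanog+Sin3a against EV, and Nanog+Sin3a against Nanog. Filled red points passed the threshold over all tested probes, 2, 4 and 0 of 15. The first 2 panels share the EV arrays, and each probe is shown on its own.

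Among the GPI-anchored members, Prnp was higher in every array with the Nanog transgene. Its intensity was 1063 and 1061 on the EV arrays, 1314 and 1086 on the Sin3a arrays, 1998 and 1841 with Nanog, and 2332 and 2486 with Nanog+Sin3a. The order was EV, Sin3a, Nanog, Nanog+Sin3a, and the groups did not overlap. Prnp rose 1.81-fold with Nanog against EV (log2 0.85, SE 0.09, 95% interval 0.65 to 1.06, n = 2 against 2). With both transgenes it rose 2.27-fold (log2 1.18, SE 0.09, interval 0.98 to 1.39). Nanog+Sin3a against Nanog gave a log2 difference of 0.33 (interval 0.12 to 0.53), which was not called. For Sin3a against EV, Prnp differed by 0.17 (SE 0.12, interval -0.07 to 0.41) among the bright probes of all 8 arrays and by 0.31 (SE 0.10) without the second Sin3a array, with no call in either fit. The Sin3a effect with Nanog minus that without it (the interaction) was 0.02 (interval -0.30 to 0.34) in the 7 arrays and 0.16 (interval -0.18 to 0.50) among the bright probes of all 8, called in neither.

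Thy1 was also higher with Nanog, but lower with both transgenes than with Nanog alone. Its first probe read 218 and 216 with EV, 508 and 444 with Nanog, and 342 and 392 with Nanog+Sin3a. The first Sin3a array read 230 and the second 11.7, a drop into the range where that array scatters. On the 7 arrays the order was EV, Sin3a, Nanog+Sin3a, Nanog, with no overlap between the groups that have 2 arrays. Thy1 rose 2.19-fold with Nanog against EV (log2 1.13, SE 0.12, interval 0.85 to 1.41). It rose 1.69-fold with Nanog+Sin3a (log2 0.75, SE 0.12, interval 0.47 to 1.04). Nanog+Sin3a against Nanog was -0.38 (SE 0.12, interval -0.66 to -0.09), not called, while Prnp stood at 0.33 in the same comparison. The interaction was -0.46 (interval -0.91 to -0.02) and was not called. With the second Sin3a array it turned to 1.46 (interval -2.05 to 4.97), and Sin3a against EV went from 0.09 to -1.84 (interval -4.32 to 0.64). The first Sin3a array differed from EV by 0.09 (SE 0.14). The second Thy1 probe lay between -12.4 and 4.60 on the 7 arrays, below the floor throughout.

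Thy1 is also a fibroblast marker, so the other markers of that cell type are given beside it. Of 9 fibroblast markers, 6 were not above the floor on any of the 7 arrays (Col1a2, Col3a1, Lum, Postn, Pdgfrb and Fap), and Col1a1 reached at most 16.5. Their summed intensity, taken from the brightest probe of each gene with values below 0 set to 0, was 24.0 to 29.0 with EV, 21.4 on the first Sin3a array, 62.7 to 65.5 with Nanog and 106 to 121 with Nanog+Sin3a. With Nanog+Sin3a most of the rise came from Dcn, a matrix proteoglycan, which read 92.6 and 79.4 there. It was below the floor on both EV arrays, at least 5.36-fold lower (log2 2.42, SE 0.35, limma adjusted p = 0.0183). Another Dcn probe gave 0.42. With Nanog alone, Dcn read 16.6 and 34.4, and each other marker averaged below the floor, so no shift is read from that sum. The part of fibroblast-like RNA in the Thy1 values was not tested.

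Cd24a went the other way. Its probe read 85.7 and 98.1 with EV, 71.7 on the first Sin3a array, 37.6 and 17.9 with Nanog, and -4.00 and 20.2 with Nanog+Sin3a. Both EV arrays and the first Sin3a array lay above all 4 arrays with the Nanog transgene, and the Nanog and Nanog+Sin3a arrays overlapped. The second Sin3a array read 0.700. Cd24a fell by 2.35 on the log2 scale with Nanog+Sin3a against EV (SE 0.36, interval -3.23 to -1.48), with the first Nanog+Sin3a array raised to the floor. At a floor of 32 in place of 16 the difference was -1.52, so its size depends on the floor. With Nanog against EV it was -1.82 (SE 0.36, interval -2.70 to -0.95), not called in the 7 arrays. Nanog+Sin3a against Nanog was -0.53 (interval -1.40 to 0.35) and the interaction -0.17 (interval -1.56 to 1.21), which turned to 0.91 (interval -1.75 to 3.56) with the second Sin3a array. In bulk RNA, fewer cells with a transcript and less of it per cell cannot be told apart.

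**Figure D3:**
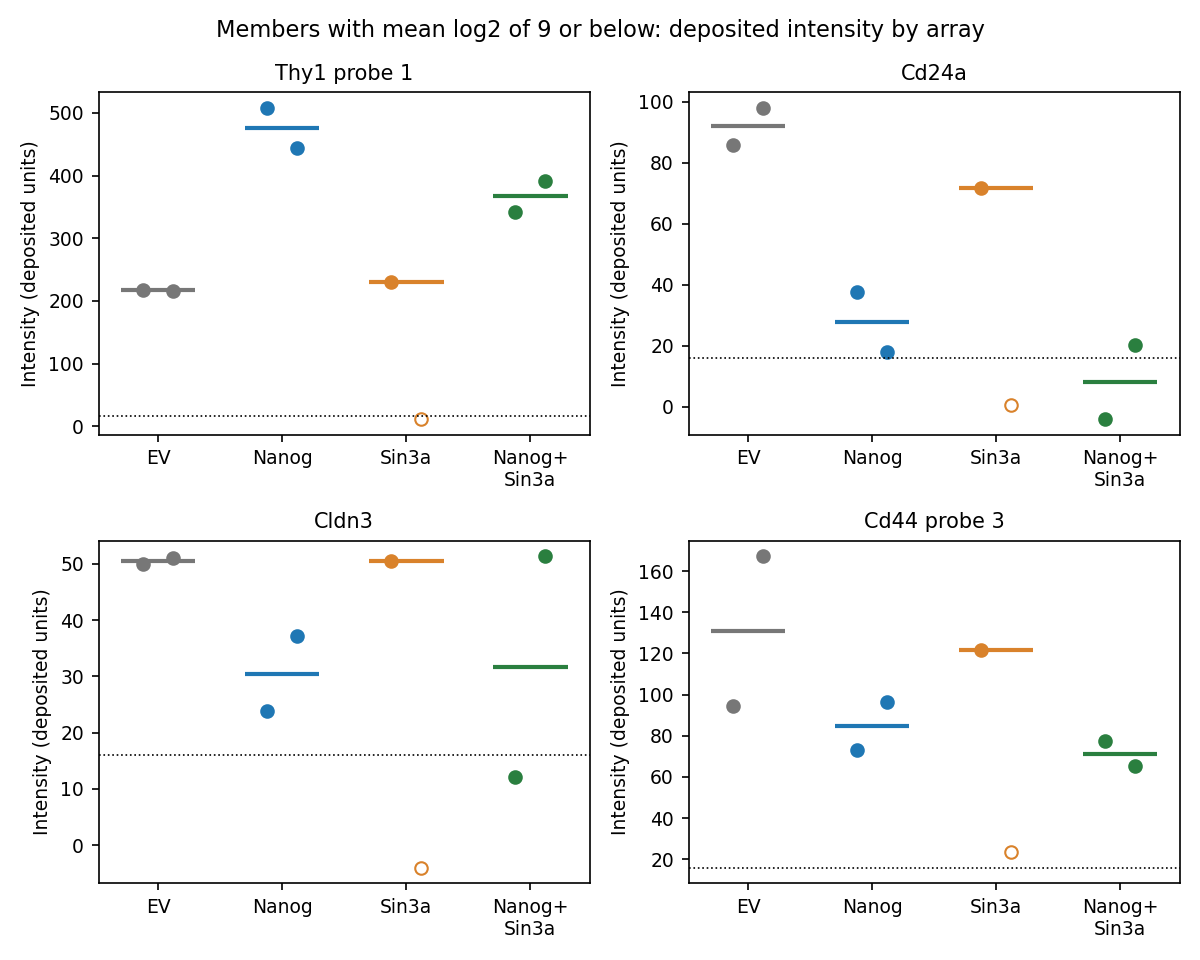
Deposited intensity on each array for 4 member probes with a mean log2 of 9 or below, by group. Filled points are arrays, the open point is the second Sin3a array, bars are group means (for Sin3a the first array alone), and the dotted line is the floor of 16. Thy1 sits between 342 and 508 on the arrays with Nanog and at 216 and 218 with EV, and Cd24a at 37.6 or below with Nanog and at 85.7 and 98.1 with EV.

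Cd9, a tetraspanin that organises membrane microdomains, was also higher on the arrays with Nanog. It read 1207 and 1276 with EV, 1324 and 1362 with Sin3a, 1712 and 2399 with Nanog, and 2042 and 2106 with Nanog+Sin3a. All 4 arrays with Nanog lay above all 4 without it, and the Nanog pair spanned the Nanog+Sin3a pair. Cd9 rose 1.67-fold with Nanog+Sin3a against EV (log2 0.74, SE 0.16, interval 0.37 to 1.12). With Nanog against EV the difference was 0.71 (SE 0.16, interval 0.33 to 1.08), not called in the 7 arrays but called among the bright probes of all 8 arrays. Nanog+Sin3a against Nanog was 0.03 (interval -0.34 to 0.41). Sin3a against EV was 0.11 (SE 0.13, interval -0.16 to 0.38) among the bright probes, where 0 of 4 member probes were called by limma and 0.15% of all, with 206 at an unadjusted p under 0.05, and all 4 intervals held 0.

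Cd44 had 9 probes, whose differences had different signs. The first 2 are bright. Probe 1 read 2036 and 1590 with EV, 1753 and 2034 with Nanog, 1911 and 1991 with Sin3a, and 1893 and 2031 with Nanog+Sin3a, so every group overlapped EV. Probe 2 read 957 and 1011 with EV, 1149 and 1450 with Nanog, 1018 and 1088 with Sin3a, and 1267 and 1188 with Nanog+Sin3a, with no group overlapping EV. Probe 2 differed from EV by 0.39 with Nanog (SE 0.12, interval 0.09 to 0.69) and by 0.32 with Nanog+Sin3a (SE 0.12, interval 0.02 to 0.62). Neither was called in 7 arrays. Among the bright probes of all 8 arrays the first was called and the second was not. Probe 1 differed by 0.07 (interval -0.27 to 0.41) and 0.12 (interval -0.21 to 0.46).

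Cd44 probe 3, a dimmer one, ran the other way. It read 94.5 and 167 with EV, 122 on the first and 23.7 on the second Sin3a array, 73.3 and 96.6 with Nanog, and 77.4 and 65.3 with Nanog+Sin3a. Its differences from EV were -0.58 (interval -1.29 to 0.13) and -0.82 (interval -1.54 to -0.11), not called. Of the other 6 Cd44 probes, 4 lay between -13.8 and 36.3 on the 7 arrays, crossing the floor, and 2 stayed at or below 8.80. The annotation gives 8 of the 9 Cd44 probes the same transcript accession.

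**Figure D4:**
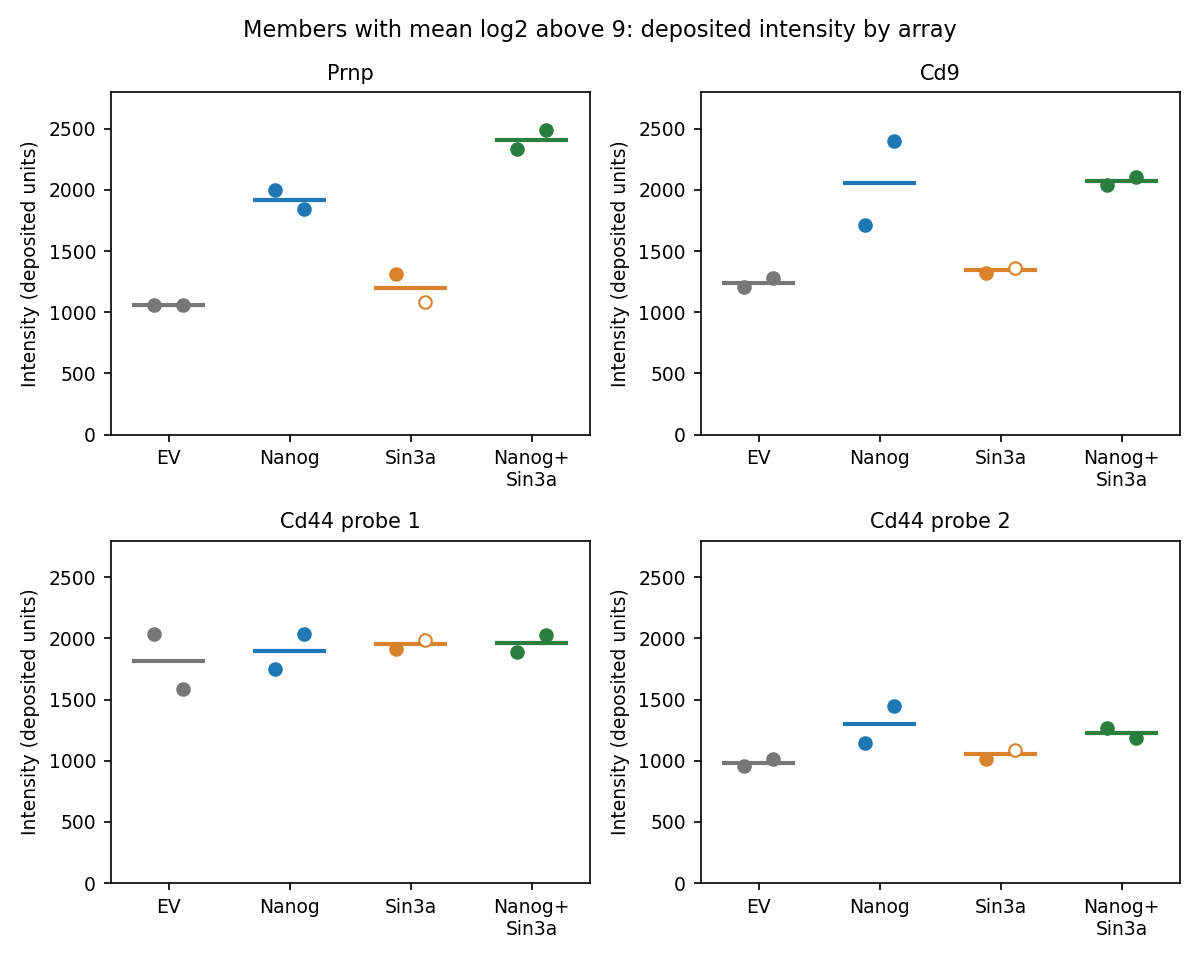
Deposited intensity on each array for the 4 bright member probes, by group, with axes from 0. Filled points are arrays, the open point is the second Sin3a array and bars are means of 2 arrays. Prnp steps from 1061 and 1063 with EV to 2332 and 2486 with Nanog+Sin3a, Cd9 separates arrays with and without Nanog, and Cd44 probe 2 spans 957 to 1450.

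The epithelial members were at or near the floor. Epcam, an epithelial adhesion glycoprotein, read between -19.5 and -10.7 on the 7 arrays, and 98.9 on the second Sin3a array. On that array 24.4% of the 8669 probes that were not above 0 on any of the 7 others were above the floor, and its partner array read -14.8 for Epcam. Cdh1 read 20.3 and 8.80 with EV, 19.6 and 2.80 with Nanog, -3.10 on the first Sin3a array, and 26.4 and 22.9 with Nanog+Sin3a. Nanog+Sin3a was the only group with both Cdh1 arrays above the floor, and these lay above the 5 others of the 7 arrays. Its difference was 0.45 from EV (SE 0.21, interval -0.06 to 0.95) and 0.47 from Nanog (interval -0.03 to 0.98), called in neither. The other Cdh1 probe stayed between -14.6 and 12.5, with -13.4 and -7.40 in Nanog+Sin3a, and showed no such order.

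Cldn3 read 50.0 and 51.0 with EV, 50.6 on the first Sin3a array, 23.8 and 37.1 with Nanog, and 12.1 and 51.4 with Nanog+Sin3a. The Nanog arrays lay below EV, and the Nanog+Sin3a arrays spanned the EV values. The differences from EV were -0.77 (SE 0.53) and -0.82 (SE 0.53), with intervals from -2.04 to 0.51 and from -2.09 to 0.46. Icam1 was above the floor on 2 of 7 arrays and ran from -5.50 to 24.7, with an EV array and a Nanog+Sin3a array at the top. The brighter Cdh2 probe ran from 0.00 to 36.7, and the other stayed at or below 12.2. At this signal no order of groups could be read for Icam1, Cdh1 or Cdh2.

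The genes whose 7-array pattern was most like Prnp, among 12648 probes above the floor on all 7 arrays, were Gstm2 (Pearson r = 0.997), Ikbkg (0.992) and Nuak1 (0.992). For the first Thy1 probe they were Shisa5 (0.992), Txnip (0.988) and Inpp5a (0.986). For Cd24a they were Gemin5 (0.991), Csnk1e (0.989) and Pus10 (0.987). These values describe 7 arrays that share the same split into groups, and each is the highest of many.

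Other surface and adhesion genes were taken from 8 lists, chosen by function. Over all tested probes the median log2 difference was 0.00 in each of the 3 comparisons between Nanog, Nanog+Sin3a and EV. Of all tested probes, 2.04% were called with Nanog against EV and 5.87% with Nanog+Sin3a against EV. The list counts below are small and stand beside these shares, and nothing is read from the counts. Of 22 tested probes for epithelial junctions and their regulators, 0 rose and 2 fell with Nanog against EV (median -0.225). They were Ppl, the plakin periplakin (at least 2.65-fold, log2 -1.41, limma adjusted p = 0.0233, -0.32 in another probe), and Pkp2, the desmosomal plakophilin (-1.11, 0.0307, -1.32 and -0.58 in other probes). With Nanog+Sin3a 0 rose and 3 fell (median -0.21), namely Ppl (-1.31, -0.32 in another probe), Pkp2 (-0.83, -1.11 and -0.95 in other probes) and a dim probe of Ctnnb1 (beta-catenin, -1.07), of which other probes gave from -1.06 to -0.03. Cldn4, Marveld2, Cgn, Dsc2, Grhl2 and Ovol1 were not above the floor on any of the 7 arrays, while Ctnna1 (alpha-catenin, 2542 to 3427), Krt8 (816 to 1199) and Esrp1 (an epithelial splicing factor, 220 to 328) were on all.

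Of 14 tested probes for mesenchymal adhesion and its regulators, 0 passed in limma with Nanog against EV (median -0.10, 5 at an unadjusted p under 0.05). With Nanog+Sin3a 1 rose and 1 fell (median -0.05). Vim, the filament protein vimentin, rose 1.30-fold (log2 0.38, SE 0.08, adjusted p = 0.0496 in limma), from 2200 and 2279 to 2973 and 2846. A dim Fn1 (fibronectin) probe fell to the floor, at least 2.11-fold, with -0.24 and -0.07 in other probes. The regulators of mesenchymal state Zeb1 (242 to 303), Snai2 (294 to 552) and Twist1 (181 to 270) were above the floor on all 7 arrays, and Twist2, Cdh11 and Prrx1 on none.

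Among other GPI-anchored proteins, the class of Thy1, Prnp and Cd24a, 1 of 18 tested probes rose and 0 fell with Nanog (median 0.195). It was Cd55, a complement regulator, at 2.45-fold (log2 1.29, SE 0.14, limma adjusted p = 0.0148). With Nanog+Sin3a 2 rose and 0 fell (median -0.01), Cd55 at 3.30-fold (1.72, 0.00372) and Gpc1, a glypican, at 1.58-fold (0.66, 0.0231). Cd55 read 49.9 and 49.5 with EV, 118 and 125 with Nanog, and 163 and 166 with Nanog+Sin3a. These 3 groups did not overlap. Of 20 tested probes for tetraspanins and Cd9 partners, 0 passed in limma with Nanog (median 0.01, 3 at an unadjusted p under 0.05) and 1 rose with Nanog+Sin3a (median -0.01), Cd151 at 1.49-fold (log2 0.57, 0.07 and 0.26 in other probes).

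Among 12 tested probes of other cadherins and protocadherins, 1 rose and 1 fell in each comparison with EV. Cdhr1, a photoreceptor cadherin, rose 3.17-fold with Nanog and 5.39-fold with Nanog+Sin3a (log2 2.43, SE 0.14, limma adjusted p = 0.00202). It read 49.8 and 46.6 with EV, 154 and 151 with Nanog, and 268 and 252 with Nanog+Sin3a. Cdh4, the retinal cadherin, fell from 45.4 and 44.1 with EV to the floor in both, at least 2.80-fold, and read 13.7 on the first Sin3a array. The list medians were 0.13 and -0.01.

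Of 17 integrin probes, 0 passed in limma with Nanog (median -0.075, 6 at an unadjusted p under 0.05) and 1 rose and 1 fell with Nanog+Sin3a (median 0.00), Itgb4 at 0.63 and Itga7 at -1.19. The other Itgb4 probe, the brighter of the pair, gave 0.24 and was not called. Of 20 probes for immunoglobulin-family adhesion molecules, 0 passed in limma with Nanog (median -0.15, 7 unadjusted) and 2 rose and 1 fell with Nanog+Sin3a (median -0.02). They were Ncam1 (1.34, -0.19 in another probe), Cadm1 (1.02) and Nectin3 (-0.46, -0.82 in another probe). Of 12 probes of the Cd44 and hyaluronan axis, 0 passed in limma with Nanog (median 0.08, 4 unadjusted) and 2 rose with Nanog+Sin3a (median 0.24), namely Srgn, a proteoglycan, at 0.84 (0.50 in another probe) and Cemip, which degrades hyaluronan, at 0.67. With Nanog+Sin3a against Nanog 0 probes of the 8 lists passed (0.0162% of all tested probes), with 1 to 4 per list at an unadjusted p under 0.05. With Sin3a against EV 0 of their bright probes passed (0.15% of all bright probes), with 0 or 1 per list unadjusted.

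**Figure D5:**
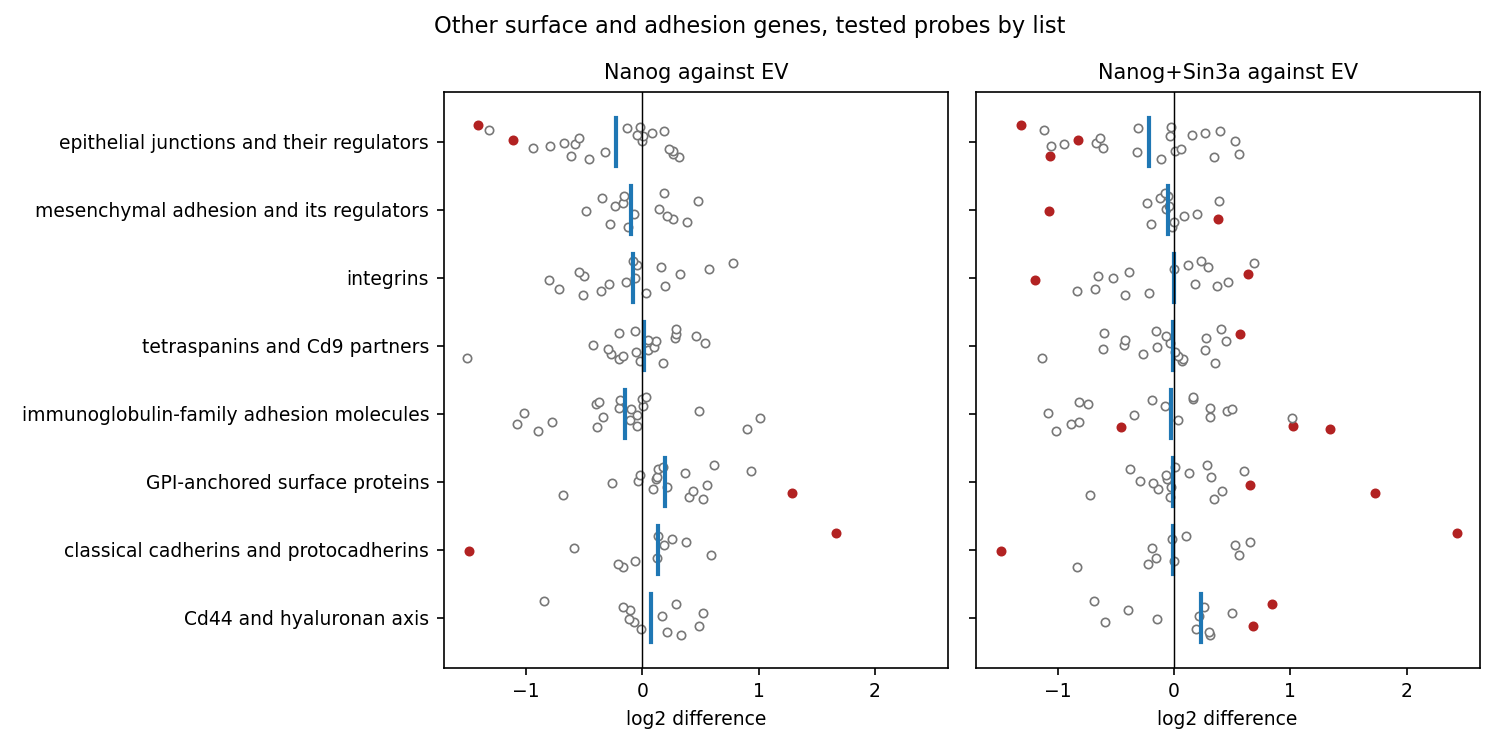
Log2 differences of the tested probes of the 8 surface and adhesion lists in the 7-array fit, against EV. Each point is a probe, filled red where it passed the threshold over all tested probes, and the blue bar is the list's median. Medians lie between -0.225 and 0.24, and Cdhr1 at 2.43 is the highest point with Nanog+Sin3a.

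Markers of other cell types moved with Nanog+Sin3a in places. The summed intensity of 8 keratinocyte markers was 908 to 955 with EV and 963 to 1048 with Nanog. It was 1227 on the first Sin3a array and 1870 to 1960 with Nanog+Sin3a, mostly through Krt14 (log2 1.60, SE 0.11). Of the 4 tested probes, Lor stood at 0.65, Krt1 at -0.66 and Krt10 at -0.40 with Nanog+Sin3a against EV, none of them called. Trp63 was below the floor throughout. Markers of neural stem cells, 9 in number, summed to 725 to 781 with EV and 482 to 533 with Nanog. Their sum was 842 on the first Sin3a array and 433 to 476 with Nanog+Sin3a. Most of each sum and of the fall was Egfr, which averaged 641 with EV, 405 with Nanog and 385 with Nanog+Sin3a. Egfr was at -0.66 with Nanog against EV (called, from -0.88 to -0.41 in 4 other probes). With Nanog+Sin3a, Egfr was at -0.73 (from -0.75 to -0.08 in 4 other probes) and Nes at -0.78 (-0.22 in another probe). Sall4, a pluripotency factor, was at -1.37 (-1.32 in another probe). Its 2 probes were the only ones called of 15 tested for pluripotent cell markers, whose median was 0.009. Endothelial markers summed to 87.5 to 104 with EV, 112 to 114 with Nanog and 119 on the first Sin3a array. With Nanog+Sin3a they summed to 123 to 155, with Tek at 1.22 and Esam at -1.08 (not called). The 5 tested endothelial probes had a median of 0.16, and Tie1, Emcn and Vwf were below the floor. The blood marker sums were 14.9 to 19.6 with EV and 26.6 to 57.9 with Nanog+Sin3a. The first Nanog array and the first Sin3a array lay within the latter range, and the second Nanog array gave 20.4. No blood marker was above the floor on all 7 arrays, and Csf1r, Itgam and Lyz2 were below it throughout. The only tested blood probe, of Cd3e, differed by 0.00 with Nanog+Sin3a against EV, so no shift is read from the blood sums. The part of these cell types in the member values was not tested.

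The calls rest on few arrays. Prnp and Thy1 with Nanog against EV were not called without any 1 of the EV, Nanog or Nanog+Sin3a arrays, and were called without the first Sin3a array. With Nanog+Sin3a against EV, Prnp, Thy1, Cd9 and Cd24a were not called without either EV or either Nanog+Sin3a array, and Thy1 not without the first Nanog array either. With all 8 arrays and all tested probes, Prnp with Nanog+Sin3a was the only one of these 6 calls that stayed. Without any 1 array the log2 differences of Prnp were 0.79 to 0.91 (Nanog) and 1.13 to 1.23 (Nanog+Sin3a). Those of Thy1 were 1.03 to 1.23 and 0.66 to 0.85. With Nanog+Sin3a, those of Cd9 were 0.70 to 0.78 and those of Cd24a -2.52 to -2.18. Their signs could not change, since the arrays of the compared groups did not overlap, so nothing is read from that. The calls in the lists rest on the same arrays: no probe at all was called with Nanog against EV without either EV or either Nanog array, or with Nanog+Sin3a against EV without either EV or either Nanog+Sin3a array. An exact permutation test of 2 arrays against 2 cannot go below a two-sided p of 0.333.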

How the data were processed

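RNA was measured in 8 samples on 1-colour Illumina arrays. The authors' deposited values are intensity per probe from GenomeStudio, per the submitters' processing notes; version and settings are not given in the sources used here. Values ran from -24 to 14965, with 47.3% to 47.7% below 0, so a background had been subtracted. Sorted values above the floor differed between the 7 arrays by at most 0.741% from their median (4.18% for the second Sin3a array), so they were kept as normalised. Depth has no meaning for arrays; their number limits the precision.

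Intensities were raised to 16 and log2-transformed. The annotation gave 1 symbol to 34885 probes, several to 18 and none to 10378; 34807 were matched to RefSeq identifiers, which changed 0 symbols. Probes above the floor on at least 2 arrays entered limma 3.58.1 under R 4.3.3 (lmFit, eBayes with trend, 1 coefficient per group, 3 residual degrees of freedom in 7 arrays and 4 in 8), two-sided, Benjamini-Hochberg over all tested probes, threshold 0.05. A fold against a group at the floor is a lower bound. The procedure was tested on simulated data. The members, lists and tests were chosen with earlier results of these data known. Named were all member probes, up to 3 called genes per list and comparison whose arrays did not overlap, the 3 genes most like Thy1, Cd24a and Prnp, and Nanog and Sin3a; genes named only for a level were chosen after their values were seen. Some genes stand in more than 1 list, and list genes with no probe here were not used.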

Additional observations from a re-analysis of the deposited data

How the results depend on the processing

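The probes called numbered 378 for Nanog against EV, 1090 for Nanog+Sin3a against EV, 3 for Nanog+Sin3a against Nanog, 0 for the interaction (954 at an unadjusted p under 0.05 in limma) and 4 for Sin3a against EV on bright probes. A floor of 32 gave 601, 1451, 18, 3 and 4. No filter on low values gave 31, 75, 20 and 425, and was not run for bright probes, which are themselves a filter. All 8 arrays with all tested probes gave 0, 27, 0, 0 and 0 (1337, 1812, 712, 494 and 571 unadjusted), and their bright probes gave 264, 463, 7 and 1 for the first 4. These last alternatives (bright probes, and all probes for Sin3a) were chosen after seeing the data. The replicate block gave 196, 573, 0, 0 and 2, but the replicate numbers did not pair the arrays: replicate differences of the groups correlated between -0.053 and 0.016 across probes. Without 1 array the counts ran from 0 to 426, 0 to 1183, 0 to 8, 0 to 0 and 1 to 14, and the first was 0 without either EV or either Nanog array, the second 0 without either EV or either Nanog+Sin3a array. Quantile normalisation, median centring and 1 probe per symbol kept each count within 1.5 times. The cause of these shifts was not tested. Of 793 member values under alternatives, 729 moved by less than the spread between arrays, 64 by more, and 0 of the called ones changed sign. Part of this was fixed in advance. For the called members, the replicate block, no filter, all 8 arrays, or leaving out an array of a group not compared left the difference unchanged. These counts therefore do not measure how firm the values are. The 6 member calls held under a floor of 32 and the replicate block, and none held with no filter. They also held under quantile normalisation and median centring, but the 7 arrays already had nearly equal sorted values. Those settings could therefore hardly change these calls or the counts of the 7-array fits, and nothing is read from them. Signal near the floor limits Icam1, Epcam, Cdh1, Cdh2, Cldn3 and 6 Cd44 probes, and Cd24a on the arrays with Nanog.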
